A study of Mus musculus with 22 samples.

Results

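The regions described here are sites in BV2 cells, an immortalised mouse microglial line, where the transcription factors C/EBPα and C/EBPβ were both detected in all 3 constructs tested and PU.1 in none. They were chosen on the deposited peak lists themselves: a C/EBPα peak of empty-vector cells was kept when it overlapped, by 1 bp or more, a C/EBPα peak with each of the other constructs, a C/EBPβ peak with every construct, and no PU.1 peak with any of them. Of 11645 C/EBPα peaks in empty-vector cells, 3466 (29.8%) met this rule. They made up 59.5% of the 5823 joint C/EBP sites that were constant across constructs. The other joint sites overlapped PU.1 in all 3 constructs (1399) or in 1 or 2 of them (958).

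The cells had been transduced with a lentivirus that was empty (pCDH), or that carried an N-terminal piece of human huntingtin with 15 glutamines (Nwt, the wild-type fragment) or with 128 glutamines (Nmu, the mutant fragment), expressed from a CMV promoter. All 3 groups, the control included, therefore carry an integrated vector and are a cell line rather than primary microglia. Each antibody, against C/EBPα, C/EBPβ, PU.1 and the histone mark H3K4me2, gave 1 chromatin immunoprecipitation library per construct, labelled 24 h, so shares of sites in different constructs were not tested against each other. RNA came from 2 libraries per construct, the first at 24 h and the second at a time that the labels give as 48 h and the table header as 6 h. It is called the second time below. RNA levels in primary microglia and bone marrow macrophages, each labelled wild-type or mutant, are given only in the closing observations. Of 14 myeloid and microglial marker genes, 10 reached 1 RPKM (read count scaled by transcript length and library size) in all 6 BV2 RNA libraries, while Cx3cr1 and P2ry12, which mark resting microglia in the brain, were under 1 RPKM in all 6. All 4 fibroblast markers (Col1a1, Col1a2, Dcn and Lum) were at 0.

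C/EBPα and C/EBPβ are basic leucine zipper proteins that bind DNA as pairs, with each other or with related factors such as ATF4, and both recognise the palindromic element TTGCGCAA and its variants. C/EBPα drives the formation of granulocytes, monocytes and fat cells, and C/EBPβ, which is induced by inflammatory signals and nutrient stress, acts at many cytokine and acute phase genes. PU.1, an ETS family factor encoded by Spi1, opens most macrophage enhancers and often binds beside C/EBP factors there. H3K4me2 is found at promoters and enhancers that are open or poised.

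The sequence under a site could be read where the site lies at a gene start, in RefSeq promoters (assembly GRCm38.p6, 250 bases before to 50 bases after a start). A site centre fell in that window of 190 genes, and 151 of these have a RefSeq promoter in the table used. The first set below shows promoters of named genes with the strict C/EBP element TTGCGCAA centred within 30 bp of the site centre and wholly before the start. It is shown because this palindrome was rare in other promoters. Letters run 5′ to 3′ on the gene's strand, and capitals mark the element. The windows lie at chr9:64022061-64022128 (Smad6, minus strand), chr2:25332674-25332741 (Man1b1, plus strand), chr7:49778269-49778336 (Prmt3, plus strand), chr6:70792183-70792250 (Rpia, minus strand) and chrX:70365086-70365131 (Ids, minus strand), all on GRCm38.p6.
Smad6: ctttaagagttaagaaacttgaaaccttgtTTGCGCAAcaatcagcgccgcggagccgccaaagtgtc
Man1b1: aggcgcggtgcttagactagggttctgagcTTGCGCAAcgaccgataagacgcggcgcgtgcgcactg
Prmt3: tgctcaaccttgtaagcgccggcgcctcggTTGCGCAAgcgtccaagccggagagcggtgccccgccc
Rpia: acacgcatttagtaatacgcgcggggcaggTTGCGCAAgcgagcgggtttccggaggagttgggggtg
Ids: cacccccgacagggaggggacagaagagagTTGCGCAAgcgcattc

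In these promoters the centre of the element lay 8 bp (Smad6), 4 bp (Man1b1), 8 bp (Prmt3), 20 bp (Rpia) and 14 bp (Ids) from the centre of the C/EBPα peak. Smad6 inhibits bone morphogenetic protein signalling, Man1b1 trims mannose from glycoproteins, Prmt3 methylates arginines, Rpia belongs to the pentose phosphate pathway and Ids is a lysosomal sulfatase. RPKM over the 6 libraries ran from 9.34 to 14.2 for Man1b1, from 3.85 to 12.4 for Prmt3, from 3.06 to 5.91 for Rpia, from 0.543 to 0.859 for Ids and from 0.098 to 0.376 for Smad6. The strict element was thus present at gene starts with very different RNA levels.

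The next set shows promoters of myeloid effector genes from the gene lists used below, with the nearest element of the looser form TTGCNNAA in capitals (for Ptgs2, the strict form). C3 encodes complement component 3, Lcn2 the iron-scavenging protein lipocalin 2, Mmp8 neutrophil collagenase, Ngp neutrophilic granule protein and Ptgs2 the prostaglandin synthase COX-2. The windows lie on GRCm38.p6 at chr17:57228144-57228211 (C3, minus strand), chr2:32387918-32387985 (Lcn2, minus strand), chr9:7558380-7558428 (Mmp8, plus strand), chr9:110419640-110419707 (Ngp, plus strand) and chr1:150099932-150099999 (Ptgs2, plus strand).
C3: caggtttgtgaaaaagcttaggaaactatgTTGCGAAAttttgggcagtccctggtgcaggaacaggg
Lcn2: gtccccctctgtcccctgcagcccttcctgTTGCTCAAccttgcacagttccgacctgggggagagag
Mmp8: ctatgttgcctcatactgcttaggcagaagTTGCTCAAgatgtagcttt
Ngp: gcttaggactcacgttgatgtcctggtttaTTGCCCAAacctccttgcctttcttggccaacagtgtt
Ptgs2: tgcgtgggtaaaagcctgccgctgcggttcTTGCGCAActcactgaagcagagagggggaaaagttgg

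The element centre was 7 bp from the site centre at C3, 14 bp at Lcn2, 25 bp at Mmp8 and 19 bp at Ngp. At Ptgs2 it was 90 bp away, with the site centred 155 bases before the start. Lcn2 stood at 0.106 and 0.084 RPKM in pCDH cells, and Ngp at 0 in both of those libraries. A constant C/EBPα and C/EBPβ peak was therefore present over promoters of genes with little or no RNA there.

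The last set shows a different arrangement, the C/EBP-ATF composite TGATGNAA, in which a C/EBP protein is known to pair with ATF4 or CHOP at genes of the amino acid and unfolded protein responses. It is shown for Slc7a11, the cystine transporter, where the site centre lies 11 bases before the start and both strands hold a match, and for Herpud1, an endoplasmic reticulum stress protein. The windows are chr3:50443623-50443709 (Slc7a11, minus strand) and chr8:94386287-94386354 (Herpud1, plus strand) on GRCm38.p6.
Slc7a11: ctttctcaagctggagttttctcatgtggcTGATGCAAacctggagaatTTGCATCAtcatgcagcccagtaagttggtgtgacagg
Herpud1: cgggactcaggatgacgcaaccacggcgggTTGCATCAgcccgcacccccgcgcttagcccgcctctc

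The 2 matches of Slc7a11 were centred 32 and 51 bp from the site centre, and that of Herpud1 88 bp. The Slc7a11 promoter also held TTGCNNAA closer to the site, centred 9 bp from its centre and beyond the printed window. In the 10 promoters with the composite, its nearest match lay a median of 38.5 bp from the site centre, and within 30 bp in 2. The composite was found in 10 of 151 promoters (6.62%, exact 95% interval 3.22 to 11.8%), beside 4.06% of all RefSeq promoters and 2.21% of promoters of genes with a mean of 1 RPKM or more. It was as frequent at promoters with joint sites that held PU.1 in all 3 constructs (4 of 38, 10.5%) and with constant C/EBPβ peaks but neither C/EBPα nor PU.1 (12 of 178, 6.74%).

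Across the 151 promoters, the element TTGCNNAA, searched on both strands, was present in 55 (36.4%, exact 95% interval 28.8 to 44.6%). The same search found it in 8.09% of 7736 promoters of genes with a mean of 1 RPKM or more and in 10.8% of all 27025 promoters, counting the first start of each gene. The strict palindrome, which is a special case of TTGCNNAA, was present in 13 (8.61%, 4.66 to 14.3%), beside 0.284% and 0.185% in those backgrounds. At promoters with joint sites that also held PU.1 in all 3 constructs, 11 of 38 had TTGCNNAA (28.9%, 15.4 to 45.9%). The palindrome was in 2 of these (5.26%, 0.644 to 17.7%). At promoters with constant C/EBPβ peaks but neither C/EBPα nor PU.1, 39 of 178 had TTGCNNAA (21.9%, 16.1 to 28.7%) and 2 the palindrome (1.12%, 0.136 to 4.00%). The intervals of the palindrome's share at joint sites without PU.1 and at C/EBPβ-only sites did not overlap. Those at joint sites without and with PU.1 did overlap, and no test was made. A match is a description of the letters, not of a bound element.

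Other elements were nearer to background. The PU.1 element GAGGAAGT was in 4 of 151 promoters (2.65%, 0.726 to 6.64%), beside 3.28% of all promoters and 15.8% (6 of 38) where PU.1 was bound as well, a difference that the rule itself bears on. The AP-1 element TGANTCA was in 6.62%, the cyclic AMP response element TGACGTCA in 3.31% and the GC box GGGCGGG in 39.7%, beside 7.93%, 1.88% and 25.8% of all promoters. Among genes at 1 RPKM or more the shares were 4.67%, 3.65% and 49.3%, so each of the 3 elements lay on the other side of that background. The GC content of the promoters had a median of 59.3%, beside 61.0% for genes at 1 RPKM or more.

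The C/EBP element was also close to the peak. In the 55 promoters that held it, its centre lay a median of 15.0 bp from the site centre and within 30 bp in 37. The GC box, in 60 promoters, had its nearest match a median of 51.5 bp away and within 30 bp in 18. Peak centres are on mm9 and promoters on GRCm38.p6, and both were measured from the gene's own start, so a gene whose start differs between the annotations adds error to this distance.

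**Figure D1:**
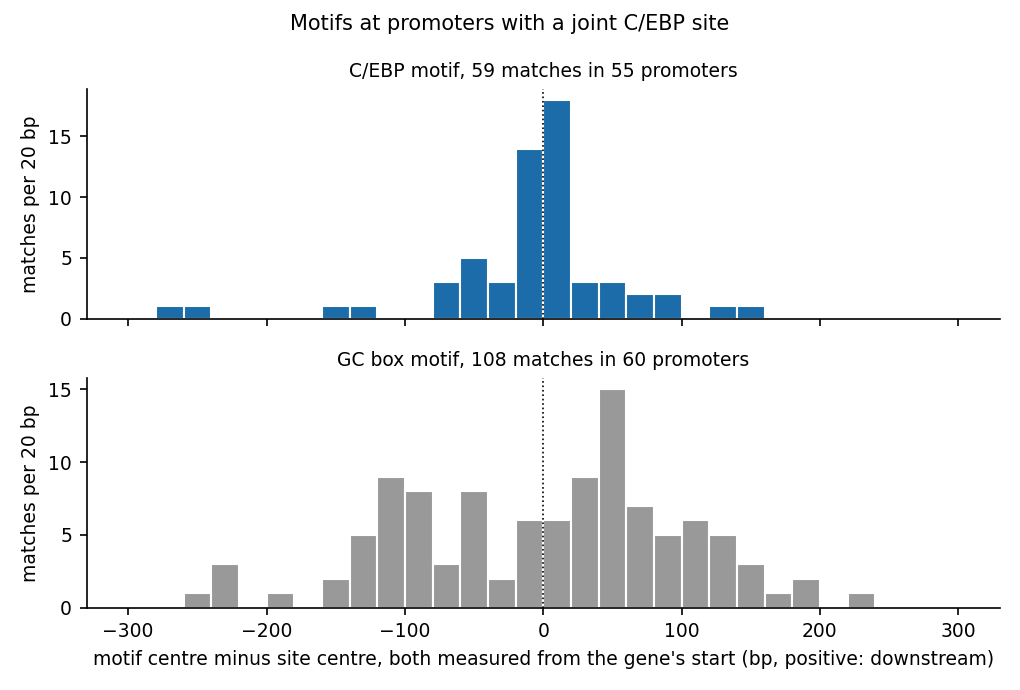
Distance from the centre of each motif match to the centre of the joint C/EBP site (bp, positive downstream, bins of 20 bp) at promoters with a site, for the C/EBP element TTGCNNAA (top, 59 matches in 55 promoters) and the GC box (bottom, 108 matches in 60 promoters). C/EBP matches pile up around 0, with a median distance of 15.0 bp for the nearest match of a promoter, while GC boxes are spread over the window.

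The 6 C/EBP peak calls at a site were nearly coincident. The centres of the 3 C/EBPα and 3 C/EBPβ peaks spanned a median of 41.0 bp (from 4 to 226 bp), with 65.8% of sites within 50 bp. The same span was 42.0 bp at joint sites with PU.1. The 10 tightest sites spanned 4 to 7 bp. They include chr8:37253391-37253527 (mm9) near Lonrf1 (span 4 bp) and chr17:15841511-15841647 just before the start of Chd1, a chromatin remodeller (6 bp). Because overlap was required by the rule, these spans are a description.

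The rule was limited by the C/EBPα list of mutant-fragment cells. Of the 11645 C/EBPα peaks of empty-vector cells, 80.6% overlapped a C/EBPα peak with the wild-type fragment and 53.7% with the mutant fragment, while 92.0 to 96.8% overlapped a C/EBPβ peak of each construct. The C/EBPα lists held 11645, 19732 and 9117 peaks with the empty vector, the wild-type and the mutant fragment, from 16.3, 24.1 and 14.7 M tags, so the smallest list came from the library with the fewest tags. Whether that depth set the number was not tested. In the order of the deposited list, whose meaning the headers do not record, 54.3% of the first 10% were members of the set and 13.3% of the last 10%. Overlap with the mutant-fragment C/EBPα list went from 98.0% to 25.1% between the same ends. Members had a median place of 31.0% of the list, and joint sites with PU.1 27.6%.

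The threshold on PU.1 was also a matter of position. The nearest PU.1 peak centre in any construct was a median of 1597.5 bp from a member's centre. It was as near as 136 bp without overlapping, while the farthest PU.1 centre counted as overlapping at joint sites lay 138 bp away. PU.1 centres lay within 200 bp of 218 members (6.29%) and within 1000 bp of 1341 (38.7%), and 390 members (11.3%) had none within 10000 bp.

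H3K4me2, which the rule did not use, covered 69.0% of the sites in empty-vector cells (exact 95% interval 67.4 to 70.6%), 65.0% with the wild-type fragment (63.4 to 66.6%) and 70.1% with the mutant fragment (68.6 to 71.7%). These intervals cover counting error only, over sites of 1 library each. The mark was present in all 3 constructs at 1930 sites (55.7%) and in none at 694 (20.0%). Over all 11645 C/EBPα peaks of empty-vector cells, from which the members were drawn, these shares were 54.1% and 24.2%. By construct, 65.5%, 62.6% and 66.9% of that whole list were covered, in the order above. At joint sites with PU.1 the share marked in all 3 was 75.6% (73.3 to 77.9%) and at constant C/EBPβ sites without C/EBPα or PU.1 it was 25.3% (24.4 to 26.3%). The joint sites without PU.1 thus lay between those with PU.1 and the C/EBPβ-only sites. The order was the same among sites over 1000 bp from a gene start, with 55.0%, 75.3% and 21.3%. Within 1000 bp of a start the shares were 61.2%, 79.6% and 62.0%.

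**Figure D2:**
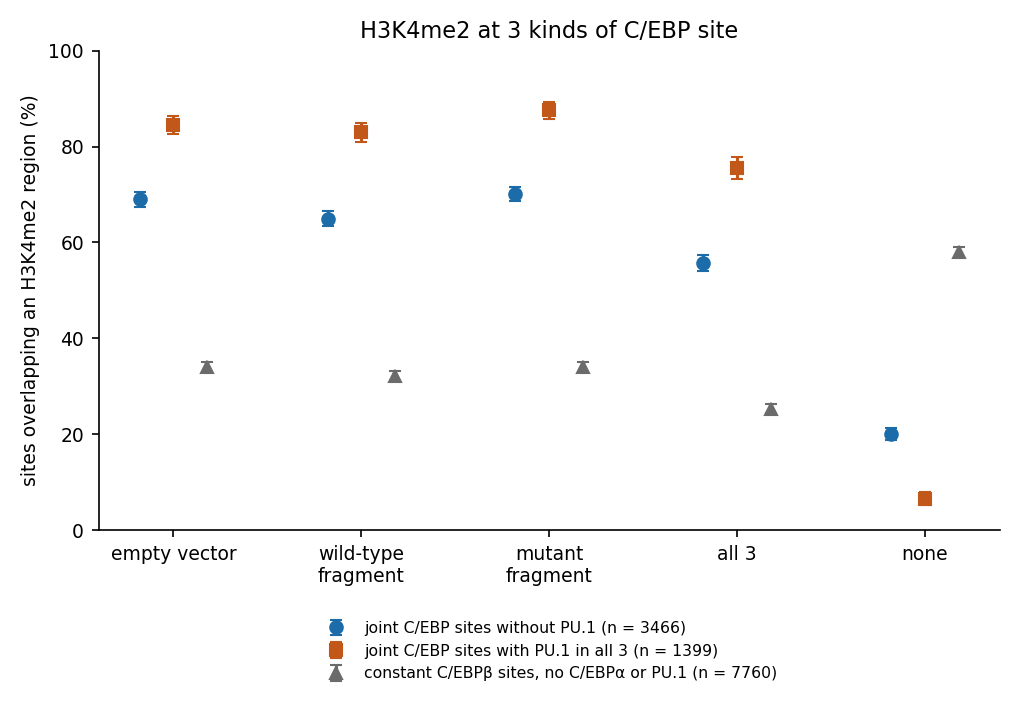
Share of sites that overlap an H3K4me2 region (%) in each construct, in all 3 and in none, for joint C/EBP sites without PU.1 (circles), joint sites with PU.1 in all 3 constructs (squares) and constant C/EBPβ sites with neither C/EBPα nor PU.1 (triangles). Bars are exact 95% intervals over sites of 1 library per construct, and the joint sites without PU.1 lie between the other kinds in every column.

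The mark varied with the distance to the nearest PU.1 peak even though no member overlapped one. Among members with a PU.1 centre over 200 and up to 500 bp away, 75.3% (71.7 to 78.7%, of 600 sites) were marked in all 3 constructs. That share was 68.1% at 500 to 1000 bp, 56.2% at 1000 to 2500 bp, 45.0% at 2500 to 10000 bp and 27.9% (23.5 to 32.7%, of 390 sites) beyond 10000 bp. The nearest class, up to 200 bp, stood at 67.0% (60.3 to 73.2%, of 218). Sites with no mark in any construct went the other way, from 8.83% at 200 to 500 bp to 40.5% beyond 10000 bp. Constant C/EBPβ sites without C/EBPα or PU.1 showed the same order at a lower level, from 56.4% at 200 to 500 bp to 10.9% beyond 10000 bp. In every distance class the exact intervals of the joint sites lay above those of the C/EBPβ-only sites. Place in the deposited list moved with the mark as well, with 64.6% of the 867 members placed first and 49.7% of the 867 placed last marked throughout, and its part in the result was not tested.

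**Figure D3:**
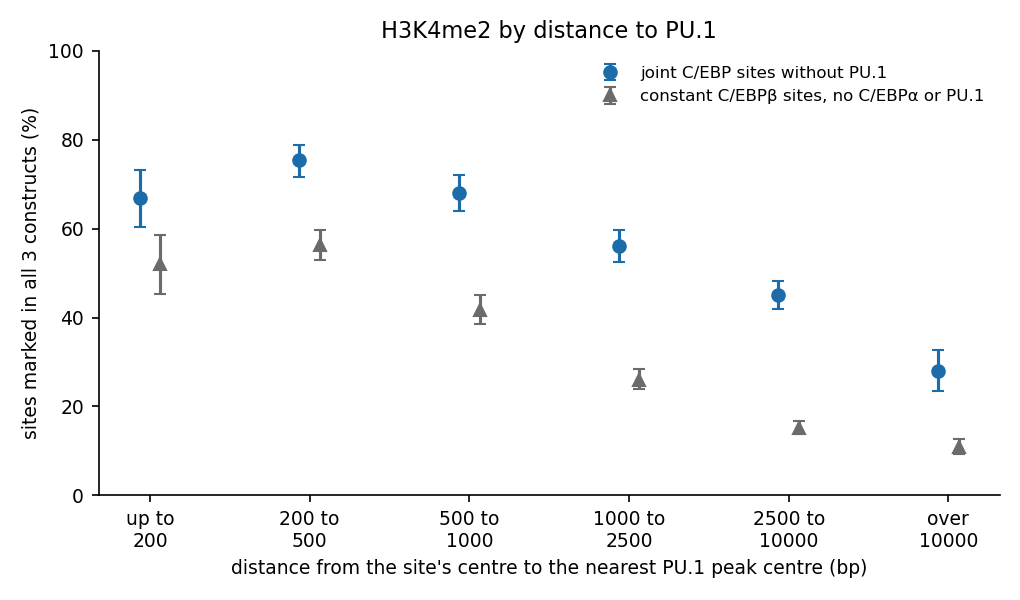
Share of sites marked by H3K4me2 in all 3 constructs (%) against the distance from the site's centre to the nearest PU.1 peak centre of any construct (bp), for joint C/EBP sites without PU.1 (circles) and constant C/EBPβ sites with neither C/EBPα nor PU.1 (triangles). Bars are exact 95% intervals, and both series decline from the class of 200 to 500 bp to the class over 10000 bp, with the joint sites higher in each class.

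The remaining sites were marked in 1 or 2 constructs. The mark was called only with the mutant fragment at 205 sites (5.91%) and in both controls but not with the mutant fragment at 147 (4.24%). Over all C/EBPα peaks of empty-vector cells these shares were 5.42% and 3.62%, so neither pattern was particular to the members. The mark was called only with the empty vector at 132 sites and only with the wild-type fragment at 62. It was missing only with the wild-type fragment at 183 and only with the empty vector at 113. Every such pattern therefore occurred, at 62 to 205 sites. Among the 205 are chr2:129137356-129137492 (mm9), 1716 bases before the start of Il1a, and chr2:32243389-32243525, 198 bases before the start of Lcn2. Among the 147 are chr3:10247296-10247432, 38788 bases before the start of Fabp4, and chr16:95930257-95930393, 6311 bases after the start of Ets2. The genes nearest to the 205 sites and within 100 kb had a median log2 fold change of -0.03 (mutant fragment against empty vector, 112 tested), and those nearest to the 147 had -0.10 (79 tested). H3K4me2 regions over the sites had median widths of 1994.5, 1884.5 and 1686 bp in pCDH, Nwt and Nmu cells against 1318, 1233 and 1154 bp over all regions. Joint sites with PU.1 had like widths, 1989, 1848.5 and 1750 bp, and a wide region is more likely to overlap any site. At the 1930 sites marked throughout, the region was narrower with the mutant fragment than with the empty vector at 65.1%. It was narrower with the wild-type fragment than with the empty vector at 61.0%. At joint sites with PU.1 marked throughout these shares were 60.5% and 58.4%, and they were not computed over all regions.

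Most sites lay away from transcript starts. Distances were taken to starts only, so a site inside a gene can count as distant. The median distance to the nearest transcript start was 18.4 kb, 11.2% of sites (10.2 to 12.3%) lay within 1 kb and 9.90% over 100 kb away. Over all C/EBPα peaks of empty-vector cells the median was 19006 bp, with 10.0% within 1 kb and 10.3% over 100 kb away. The promoter window itself held 5.48% of the sites (4.75 to 6.29%), against 3.29% (2.42 to 4.36%) of joint sites with PU.1 and 2.96% (2.60 to 3.37%) of the C/EBPβ-only sites. Of the sites, 2993 (86.4%) had no other member within 10 kb, and 93 lay in 31 runs of 3 with gaps under 10 kb. Such runs lay at Socs3, which encodes an inhibitor of cytokine signalling, at Lgmn and Gpnmb, which encode a lysosomal protease and a lysosomal membrane glycoprotein, and at Nfil3, which encodes a leucine zipper factor of the same superfamily.

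Cebpb itself had 10 sites within 100 kb of its start on chromosome 2, 8 of them nearest to the non-coding gene A530013C23Rik just beyond it. The site closest to Cebpb, chr2:167513308-167513444 (mm9), was centred 1039 bases before the start and marked in all 3 constructs, and the next, 1201 bases after the start, in none. Spi1, which encodes PU.1, had a site 90 bases before its start and another 8791 bases before it. Both were marked in all 3 constructs, although PU.1 was called at neither. Cebpa and Cebpg share 1 site within 100 kb, 77769 bases before the start of Cebpa, and Cebpd had none. Other genes with many sites for which they were the nearest start within 100 kb were Gm5086, Tomm20 and Zfp217 (7 each), Gdnf, Ppap2b and Trib1 (6 each), and Fam134b, Lrig2 and Sp3 (5 each). Trib1 encodes a pseudokinase that targets C/EBPα for degradation, and a site lay 122 bases before its start with no H3K4me2 in any construct. Gdnf, a neurotrophic factor, was at 0 RPKM in all 6 libraries in spite of its 6 sites.

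Genes with a site nearby were more often expressed than others. Of 383 genes with a site within 1 kb of a start, 82.5% were tested (1 RPKM or more in at least 2 of the 6 libraries), against 43.2% of all 23953 gene symbols. In empty-vector cells at 24 h their median was 4.84 RPKM and that of all genes 0.14 RPKM. Genes within 1 kb of the other kinds of site had like values. For joint sites with PU.1, 80.5% were tested, with a median of 4.82 RPKM in the same library. For C/EBPβ-only sites the values were 78.4% and 3.42 RPKM. The share of genes with a site within 20 kb of a start increased with the mean RPKM, from 4.93% under 0.1 RPKM to 14.8% at 1 to 10 RPKM and 20.3% at 100 RPKM or more. For joint sites with PU.1 it went from 1.78% to 9.48%, and for C/EBPβ-only sites from 11.8% to 34.5%. The most abundant genes with a site in the promoter window were Ftl1 (ferritin light chain, 2220 to 3058 RPKM), Eef1a1 (translation elongation factor, 1429 to 1880 RPKM), Tuba1c (a tubulin, 152 to 496 RPKM), Ctsl (the protease cathepsin L, 227 to 290.0 RPKM) and Lcp1 (the leukocyte actin-bundling protein plastin, 42.6 to 121 RPKM). Ftl1, Eef1a1 and Tuba1c have near-identical copies, so their counting is uncertain.

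The RNA libraries ask whether genes near these sites differ with the mutant fragment while C/EBP occupancy is called in every construct. Marco, a scavenger receptor of phagocytes with sites 4142 and 19413 bases before its start, stood at 0.640 and 1.05 RPKM in pCDH cells, 0.966 and 2.29 RPKM in Nwt cells and 97.0 and 59.0 RPKM in Nmu cells (24 h and second time). Il1a, which encodes interleukin-1α and has 5 sites within 100 kb, stood at 4.49 and 1.78, 5.60 and 2.09, and 66.4 and 34.3 RPKM in the same order. Both mutant-fragment libraries were above all 4 others for each gene. Nfkbia, the NF-κB inhibitor, with a site 766 bases after its start, had 2.00 and 3.18, 1.93 and 3.37, and 14.1 and 21.3 RPKM. Pilra, an immunoglobulin-like receptor with a site 15287 bases after its start, had 1.40 and 2.27, 1.80 and 3.31, and 14.8 and 31.0 RPKM, again with no overlap. Pilra has similar neighbouring genes, so its reads are uncertain.

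These 4 genes rose with the mutant fragment among 1629 tested genes nearest to a site within 100 kb (limma on log2(RPKM + 1), adjusted over all 10350 genes tested). Their log2 fold changes against the empty vector were 5.38 (SE 0.37, adjusted p = 0.0396) for Marco, 3.64 (SE 0.16, adjusted p = 0.0206) for Il1a, 2.37 (SE 0.16, adjusted p = 0.0396) for Nfkbia and 3.01 (SE 0.20, adjusted p = 0.0396) for Pilra. No gene near a site was called lower. Over all genes tested, 9 (0.087%) were called higher by the same test and none lower. Against the wild-type fragment, Il1a (adjusted p = 0.0271) and Nfkbia (adjusted p = 0.0434) rose, beside 7 genes (0.0676%) in all. A shift in the make-up of the cell population and a change in RNA per cell cannot be told apart in such bulk libraries, and nothing in the labels says that libraries came from separate cultures, so the p-values speak of variation among these samples alone, which may be technical. The count of 4 became 0 when 5 was added to the RPKM in place of 1 and 0 when low genes were kept, and 1 with time left out of the model. It became 7 when the pCDH library of 24 h was dropped, 34 and 33 when the Nwt library of 24 h or of the second time was dropped, and 146 and 307 when the Nmu library of 24 h or of the second time was dropped.

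Without a threshold on the adjusted p, the difference was spread over both directions. Among the 1629 genes, 160 had an unadjusted limma p under 0.05 as higher and 172 as lower with the mutant fragment, 20.4% in all, against 15.3% of all genes tested. The share was 25.7% for genes nearest to joint sites with PU.1 and 16.9% for genes nearest to C/EBPβ-only sites, and genes can belong to more than 1 of these groups. At least 2-fold differences at both times were seen for 31 genes as higher (1.90%, background 1.18%) and 23 as lower (1.41%, background 0.744%). The median log2 fold change was -0.01, and -0.00 over all genes tested, and the differences went both ways. For the wild-type fragment against the empty vector no gene near a site passed the adjusted threshold. An unadjusted p under 0.05 was found for 1 as higher and 4 as lower of the same 1629 (0.307%, background 0.638%).

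Several genes with the largest differences had RNA groups that did not overlap but missed the adjusted threshold. C3 stood at 6.75 and 1.44 RPKM in pCDH cells and 35.2 and 23.1 RPKM in Nmu cells (log2 fold change 2.76, SE 0.32, adjusted p = 0.105). Nfkbiz, an atypical IκB protein with a site 118 bases before its start, stood at 1.17 and 0.909 against 26.7 and 7.36 RPKM (2.90, SE 0.43, adjusted p = 0.132). Ets2, an ETS family factor, had 2.79 and 3.10 against 43.8 and 13.9 RPKM (2.71, SE 0.46, adjusted p = 0.154). Lcn2 was at 219 RPKM in Nmu cells at 24 h and at 1.98 RPKM at the second time, against 0.106 and 0.084 RPKM in pCDH cells (4.55, SE 1.61, adjusted p = 0.302), so its value rests mostly on 1 library.

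Among the lowest were Abcd2, a peroxisomal transporter of very long-chain fatty acids, with 17.5 and 6.96 against 0.514 and 0.756 RPKM (log2 fold change -2.90, SE 0.40, adjusted p = 0.124), and Atp6v0d2, a proton pump subunit of macrophages and osteoclasts, with 41.2 and 14.2 against 3.24 and 2.80 RPKM (-2.66, SE 0.37, adjusted p = 0.124). Fabp4, the adipocyte and macrophage fatty acid carrier, had 78.7 and 30.2 against 6.88 and 12.4 RPKM (-2.28, SE 0.58, adjusted p = 0.223). Selenbp2 (-2.76), F13a1 (-2.46), Rasgrp3 (-2.16), Scel (-1.92) and Angptl2 (-1.86) also missed the threshold, with adjusted p between 0.124 and 0.222. These high and low genes were all taken from genes nearest to a site.

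**Figure D4:**
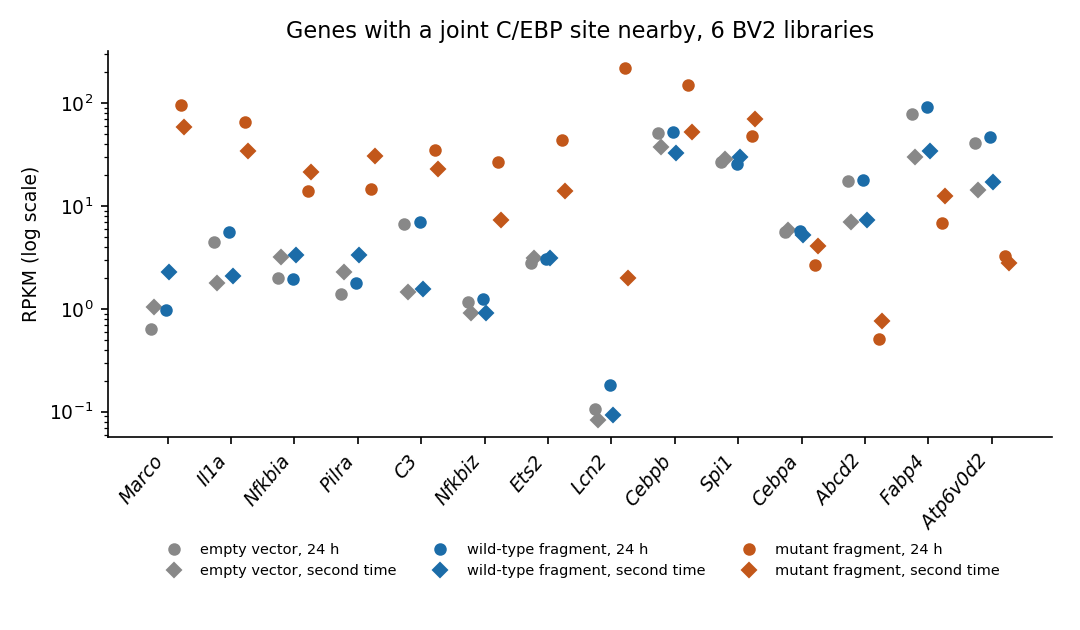
RPKM (log axis) in the 6 BV2 RNA libraries for 14 genes with a joint C/EBP site within 100 kb, with circles for 24 h and diamonds for the second time. The mutant-fragment libraries lie above the other 4 for Marco, Il1a, Nfkbia and Pilra, which passed the adjusted threshold. They also lie above them for C3, Lcn2 and Spi1, and below them for Abcd2, Fabp4, Atp6v0d2 and Cebpa, which did not pass.

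The genes of the factors themselves did not pass the adjusted threshold. Cebpb stood at 51.6 and 37.1 RPKM in pCDH cells, 52.4 and 32.9 RPKM in Nwt cells and 149 and 52.4 RPKM in Nmu cells (log2 fold change 1.00, SE 0.29, adjusted p = 0.249), and its second Nmu value overlapped the controls. Cebpa had 5.64 and 5.88 RPKM in pCDH cells and 2.68 and 4.13 RPKM in Nmu cells (-0.64, SE 0.21, adjusted p = 0.283). Cebpd, without a site within 100 kb, had 0.637 and 0.696 against 10.4 and 4.90 RPKM (2.30, SE 0.32, adjusted p = 0.124). Spi1 had 26.9 and 28.7 against 47.8 and 70.2 RPKM (1.03, SE 0.19, adjusted p = 0.170).

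Sites were unevenly placed over the gene lists used. Over 9961 tested genes with transcripts of 200 bases or more, 15.9% had a site within 20 kb of a start. The adipocyte and lipid list had 15 of 23 (65.2%), the inflammatory and acute phase list 14 of 23 (60.9%), C/EBP and partner factors 12 of 26 (46.2%), lysosome genes 10 of 22 (45.5%), granulocyte and monocyte genes 5 of 12 (41.7%) and amino acid response genes 16 of 43 (37.2%). Hypoxia and glycolysis genes (5 of 21, 23.8%) and cell cycle genes (5 of 24, 20.8%) were nearer to the background. The lists were described in the same way for joint sites with PU.1, which are 6.06% over all tested genes. There the granulocyte list had 5 of 12, the lysosome list 6 of 22, the inflammatory list 5 of 23 (21.7%) and the hypoxia list 4 of 21 (19.0%). The amino acid response list had 4 of 43 (9.30%), C/EBP and partner factors 2 of 26, the lipid list 1 of 23 and the cell cycle list 1 of 24 (4.17%). C/EBPβ-only sites lay near 29.3% of all tested genes, and were as frequent as joint sites without PU.1, or more so, at amino acid response (53.5%), lysosome (50.0%), hypoxia (42.9%) and cell cycle genes (20.8%). They also lay near 52.2% of the lipid list, 43.5% of the inflammatory list, 38.5% of C/EBP and partner factors and 25.0% of the granulocyte list.

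**Figure D5:**
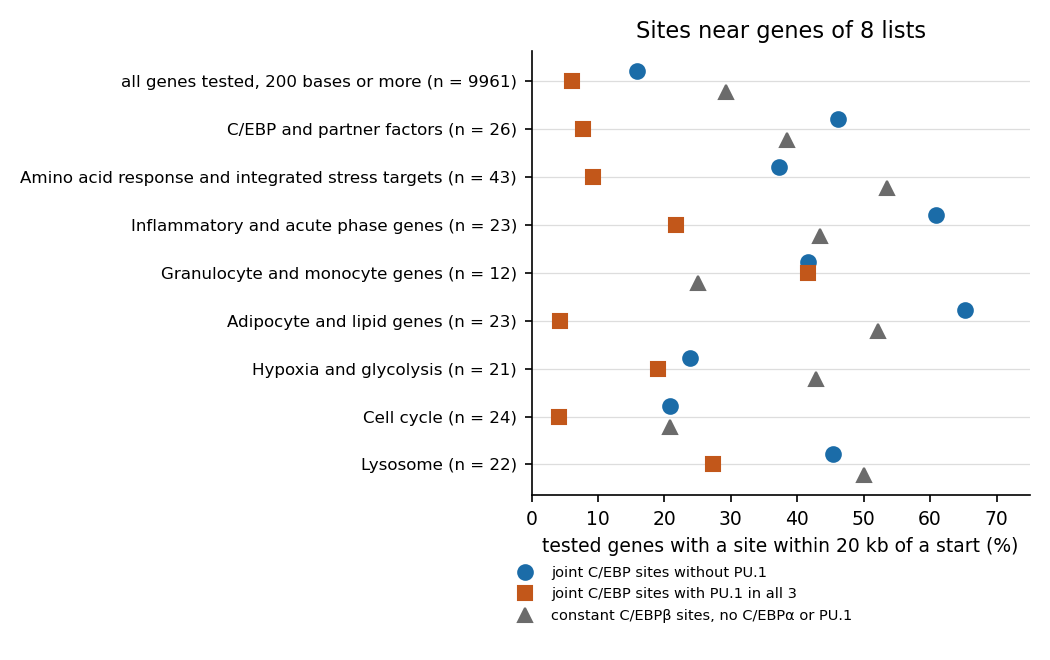
Share of tested genes with a site within 20 kb of a start (%) for all tested genes and for 8 gene lists, with n the number of tested genes, for joint C/EBP sites without PU.1 (circles), joint sites with PU.1 in all 3 constructs (squares) and constant C/EBPβ sites with neither C/EBPα nor PU.1 (triangles). For the lipid list the joint sites without PU.1 reach 65.2% and those with PU.1 4.35%, while all tested genes stand at 15.9% and 6.06%.

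Within the inflammatory list, 3 of the 14 tested genes with a site were called higher with the mutant fragment (Il1a, Marco and Nfkbia), and 12 of the 14 were higher and 1 lower at both times. Among all 1585 tested genes with a site within 20 kb, nearest or not, 5 were called higher, and 481 were higher and 439 lower at both times. The list was chosen with earlier results of these data known, so its counts are a description and not independent support. The 14 had a median log2 fold change of 2.23 and all 23 tested genes of the list 2.08. Il1b, with a site 2253 bases before its start, had 1.50 and 1.90 RPKM in pCDH cells and 9.73 and 10.1 RPKM in Nmu cells (2.02, SE 0.18, adjusted p = 0.0594). Tlr2, a receptor for bacterial lipoproteins with a site 3696 bases before its start, had 3.57 and 4.91 against 22.2 and 30.2 RPKM (2.37, SE 0.19, adjusted p = 0.0524). Saa3, an acute phase protein, had 17.6 and 26.5 against 214 and 38.7 RPKM (2.03, SE 0.75, adjusted p = 0.315). Il1b and Tlr2 are named after their values were seen.

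Within the lipid list, 8 of 15 tested genes with a site were lower and 2 higher at both times (439 and 481 of all 1585 with a site), with a median of -0.49 against -0.80 over all 23, and none passed the adjusted threshold. Scd2, a fatty acid desaturase with a site 2293 bases after its start, had 257 and 228 RPKM in pCDH cells and 40.1 and 189 RPKM in Nmu cells (log2 fold change -1.46, SE 0.62, adjusted p = 0.352). Fabp5 had 199 and 162 against 89.4 and 181 RPKM, and Abcg1, a cholesterol exporter, 28.1 and 13.7 against 19.7 and 12.9 RPKM, so these groups overlapped across the times.

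For C/EBP and partner factors the 12 tested genes with a site had a median of 0.39, with 7 higher and 3 lower at both times, beside 481 and 439 of all 1585 tested genes with a site. Atf3, a stress-induced factor with a site 79 bases after its start, had 30.9 and 13.8 RPKM in pCDH cells and 112 and 25.9 RPKM in Nmu cells (1.35, SE 0.28, adjusted p = 0.188). Atf4 had 49.9 and 72.8 against 87.2 and 60.8 RPKM, with overlapping groups (0.27, adjusted p = 0.682). The amino acid response list shares Cebpb, Cebpg, Ddit3 and Atf3, all with a site, with C/EBP and partner factors, so the tallies are not separate. Its median was 0.63 with a site and 0.52 over all 43. Of its 16 tested genes with a site, 11 were higher and 2 lower at both times, beside 481 and 439 of the same 1585. Among its most abundant genes, Phgdh, the first enzyme of serine synthesis, had 96.6 and 133 against 103 and 135 RPKM, and Sars, seryl-tRNA synthetase, 39.2 and 36.4 against 73.6 and 40.6 RPKM. Herpud1 had 6.14 and 7.48 against 17.2 and 15.6 RPKM (1.16, SE 0.20, adjusted p = 0.154) and Slc7a11 0.527 and 0.720 against 5.92 and 1.55 RPKM (1.38, SE 0.46, adjusted p = 0.287).

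Granulocyte and monocyte genes with a site included Lyz2 and Lyz1, which encode lysozymes of near-identical sequence and share a site 19699 and 9103 bases before their starts. Lyz2 had 592 and 470.4 RPKM in pCDH cells and 1070 and 1398 RPKM in Nmu cells (log2 fold change 1.21, SE 0.23, adjusted p = 0.176). Mmp8 had 2.03 and 1.61 against 0.269 and 0.571 RPKM (-0.99, SE 0.22, not past the threshold), and Itgam, the integrin CD11b, 23.5 and 16.4 against 16.9 and 25.5 RPKM, with overlap. The 5 tested genes of this list with a site had a median of 0.80, and the 12 tested 0.29. Lysosome genes with a site had a median of 0.14 (0.07 over all 22). Gpnmb, with 3 sites within 20 kb, had 998 and 514 against 1274 and 1073 RPKM (0.71, SE 0.24, adjusted p = 0.286), and Ctsb, cathepsin B, whose site 9975 bases after the start was marked only with the mutant fragment, 191 and 154 against 331 and 295 RPKM (0.86, SE 0.16, adjusted p = 0.172). Hypoxia and glycolysis genes with a site had a median of -0.05 and those of the cell cycle -0.15. Pfkp, a phosphofructokinase, had 16.7 and 12.7 against 5.26 and 9.31 RPKM (-0.95, adjusted p = 0.275), and Pcna, the DNA polymerase clamp, 32.0 and 106 against 46.7 and 127 RPKM (0.39, adjusted p = 0.354). No gene of these last 4 lists that had a site passed the adjusted threshold.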

How the data were processed

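ChIP-seq (12 libraries, 1 per antibody and construct) and RNA-seq (6 BV2 libraries, plus 4 of primary cells used as levels only) were taken as processed files on mm9. The 4 were wild-type and mutant microglia and wild-type and mutant bone marrow macrophages, 1 library each. Per the submitters' processing notes, Bowtie and HOMER were used for ChIP-seq and STAR 2.0.3e, HOMER and edgeR for RNA-seq. Per the file headers, peaks were called by HOMER in each library separately, against an input named after another macrophage source. In the deposited peak lists every score is 1, so no stricter list could be made. The authors deposited RPKM per transcript, with no read counts. The low RPKM values of the BV2 libraries came out as whole reads for 100.0% of those examined (tolerance 0.1 reads) and imply depths of 10.8 to 14.0 M reads. Factor libraries held 5.36 to 24.1 M tags and H3K4me2 libraries 5.26 to 5.39 M.

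Overlaps of 1 bp or more, distances from peak centres to transcript starts of the expression table, and exact (Clopper-Pearson) 95% intervals were computed with Python 3.11.15 and scipy 1.17.1. The transcript with the highest mean RPKM stood for a gene symbol. Genes with 1 RPKM or more in at least 2 of 6 libraries entered a model in limma 3.58.1 under R 4.3.3 on log2(RPKM + 1), which understates changes of low genes, with construct and time as terms (2 residual degrees of freedom). The adjusted p is Benjamini-Hochberg over all genes tested, threshold 0.05. The 2 times stand in for replicates. Overlap counting and the fit were tested on simulated data. Motifs were searched on both strands of RefSeq promoters (GRCm38.p6). No mm9 genome was used.

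The members, the comparison sets and the gene lists were chosen with earlier results of these data known. Named genes are the 10 with most nearest sites within 100 kb, the 10 most abundant with a site in the promoter window, those past the adjusted threshold and the 8 highest and 8 lowest among genes nearest to a site, the 4 most abundant per list with a site within 20 kb, and Cebpa, Cebpb, Cebpd, Cebpg and Spi1. Genes whose promoter is printed were chosen from the motif search. A gene that this rule names is not reported here.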

Additional observations from a re-analysis of the deposited data

How the results depend on the processing

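The number of sites was within 1.5 times of 3466 under every alternative run except leaving out the mutant fragment, which gave 6000. The share of sites under H3K4me2 in pCDH, Nwt and Nmu cells was 66.5%, 62.3% and 67.7% when PU.1 within 200 bp also counted, 75.1%, 72.7% and 75.9% when a region within 500 bp counted, and 67.1%, 62.9% and 68.0% when the region had to cover 50% of the site. The share near a start was 17.2% within 2.5 kb and 6.43% within 250 bases. Higher calls against the empty vector (4) and the wild-type fragment (2) became 0 and 0 at a pseudocount of 5, 0 and 0 unfiltered, and 1 and 1 with no time term. With only the 2 constructs compared they became 31 and 17, and lower calls (0 and 0) became 28 and 7. Leaving out 1 library at a time gave 3 to 307 higher and 0 to 352 lower calls against the empty vector, and 11 to 283 and 2 to 370 against the wild-type fragment. A lone remaining library is then assumed to vary like the others. No call was made between wild-type fragment and empty vector under any of these. The log2 fold change of Cebpg (0.30) ran from -0.68 to 1.29 over those fits and was -0.35 without the empty-vector library of 24 h. The cause of these changes was not tested. A window of 50 kb for the lists and every RefSeq start for the motifs were chosen after seeing the data. At 50 kb, 29.2% of all tested genes, 82.6% of the lipid list and 78.3% of the inflammatory list had a site. With every start, 39.1% of promoters held TTGCNNAA and 9.27% the palindrome. No stricter score could be tried because all scores are 1. ChIP with 1 library per antibody and construct gives no replicate check, and 2 residual degrees of freedom limit the RNA test.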

Other observations

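Some genes with a site within 20 kb of a start were low in BV2 cells and higher in the primary cells of the same table (1 library each, with no test). Ngp and Camp, antimicrobial granule proteins of neutrophils, stood at 74.2 and 124 RPKM in wild-type microglia and at 0 in both pCDH libraries. They stood at 30.3 and 40.2 RPKM in mutant microglia, 31.5 and 6.13 RPKM in wild-type macrophages and 19.1 and 4.31 RPKM in mutant macrophages. Csf3r, the granulocyte growth factor receptor, stood at 42.5 RPKM in wild-type microglia and at 0.763 and 0.312 RPKM in pCDH cells. Its values were 45.7 RPKM in mutant microglia and 5.05 and 4.31 RPKM in wild-type and mutant macrophages. Ddit4, a stress-induced inhibitor of mTOR signalling with a site 8021 bases after its start, had 13.6 and 14.0 RPKM in pCDH cells and 4.94 and 2.99 RPKM in Nmu cells, with no overlap (log2 fold change -1.61, SE 0.21, adjusted p = 0.119 by limma).

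Chromosome 2 held 372 of the sites (10.7%), beside 11.7% of all C/EBPα and 10.4% of all C/EBPβ peaks of empty-vector cells. Chromosome X held 31 (0.894%), beside 1.21% and 1.50%.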
